A study of Homo sapiens
Mus musculus and Mus musculus and Homo sapiens with 3 samples.

Results

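The 10 genes described here are Notch pathway genes chosen by symbol: the ligands DLL1, DLL3 and JAG1, the receptors NOTCH1, NOTCH2 and NOTCH3, the glycosyltransferase MFNG, the effectors HES1 and HES5, and HES6. All 10 were found among the 15472 gene symbols that the human and mouse files share, and all 10 were among the 11848 genes with enough counts to be tested between cell classes. Their levels were set side by side in progenitors, NEUROG2+ cells and neurons of human and mouse cultures. Detection of ligand and effector within single cells was then compared.

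In Notch signalling a ligand on a cell activates a receptor on its neighbour, and the freed receptor domain switches on HES1 and HES5, which repress neuronal genes. A cell about to become a neuron raises NEUROG2, a proneural transcription factor, and DLL1, and so holds its neighbours back, a process called lateral inhibition. In the developing spinal cord this keeps progenitors dividing beside newborn neurons.

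The cells came from human and mouse pluripotent stem cells taken through in vitro motor neuron differentiation as embryoid bodies, which are floating cell aggregates. All carried a lentivirus with a barcode and GFP under the CAGGS promoter, and only GFP-positive cells were kept by sorting after papain and DNase I treatment. Human replicate 1 was the NCRM1 line, labelled iPS, and mouse replicate 1 was C57BL/6 ES cells, both read from 1 mixed 10x 3' library. Human replicate 2 was the RUES1 line, also labelled iPS, and mouse replicate 2 was again C57BL/6 ES cells, each in a library of its own. Sampling was every 48 h in human and every 24 h in mouse, but the files give no day for a cell, so classes and species may differ in day as well.

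The 4 library parts held 28577630, 32803173, 38166382 and 83969715 UMIs, or unique molecular counts, in 2407, 2044, 1881 and 2783 cells. Here and below, 4 values in a row are in the order human replicate 1, human replicate 2, mouse replicate 1 and mouse replicate 2, and n is 2 library parts per species. For the sorting into classes each cell was brought to 7000 UMIs by random draws, so that depth did not decide its class. Progenitors had at least 1 SOX2 UMI and no STMN2 or NEUROG2 UMI (681, 507, 694 and 859 cells). NEUROG2+ cells had at least 1 NEUROG2 UMI (638, 475, 462 and 494 cells). Neurons had at least 3 UMIs of STMN2, a microtubule regulator of neurons, and no NEUROG2 UMI (225, 272, 142 and 340 cells). The other 383, 207, 446 and 828 cells of that depth were in no class. The level of a gene is its CPM, the usual scaling of its UMIs by all UMIs of the class, taken over the whole unthinned cells.

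The classes were checked against marker lists. Neuron markers summed to 43.9, 112, 191 and 89.8 CPM in progenitors, 879, 1363, 1059.5 and 1814 CPM in NEUROG2+ cells and 4902, 9366, 7539 and 11731 CPM in neurons, with TUBB3 at 0 throughout human replicate 1. The progenitor list, which holds HES5, summed to 4853, 7424, 1608 and 1764 CPM in progenitors, 5601, 6912, 1622 and 2210.4 CPM in NEUROG2+ cells and 2847, 2602, 757 and 735 CPM in neurons. This list was thus lower in neurons but did not set progenitors apart from NEUROG2+ cells. Markers of mesenchyme or neural crest summed to 28.3, 486, 3.50 and 38.6 CPM in progenitors, so human replicate 2 stood apart. It had all 8 of 8 markers, as had both mouse parts at low levels, and human replicate 1 had 7. Markers of epithelium or endoderm summed to 99.6, 215, 19.2 and 64.2 CPM in progenitors, with AFP at 0 in 3 of the 4 parts. Endothelial markers were at 7.16, 9.69, 4.11 and 1.32 CPM in neurons and lower in progenitors, with CDH5 at 0 in progenitors of all 4 parts. Some results in which human replicate 2 progenitors weigh are also given with the cells that carry mesenchyme, crest, epithelial or endoderm markers left out. These are mainly results of HES1, HES5 and HES6. The tests between cells with and without DLL1 were not refitted in this way. A thinned cell was left out at 2 or more UMIs summed over the mesenchyme or crest and the epithelium or endoderm lists. This kept 561, 312, 672 and 763 progenitors.

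HES1, HES5 and HES6 belong to 1 protein family but, from work in mouse, act in opposite ways: HES1 and HES5 block neuronal differentiation, and HES6 counteracts HES1. Their coding sequences end alike, and the ends are shown because they hold a motif that all of them share, while the levels below set HES6 apart. Each line gives the last 30 coding bases of the mouse gene, stop codon included, with capitals over the codons of the short motif by which HES proteins bind TLE co-repressors. In mm10 (GENCODE M21) each lies within 1 exon, on chromosome 16, plus strand (chr16:30067399-30067428), on chromosome 4, plus strand (chr4:154961646-154961675), and on chromosome 1, minus strand (chr1:91412058-91412087).
Hes1: gactccatgTGGAGACCGTGGcggaactga
Hes5: cccgcctgcggcctcTGGCGGCCCTGGtga
Hes6: cgggctcagagtgtgTGGAGGCCTTGGtga
The motif sits next to the stop codon in Hes5 and Hes6, while Hes1 has 2 codons between them. Of 17082 mouse protein-coding genes searched in the same way, on the coding strand and in frame, 5 (0.0293%) hold codons for the same motif in their last 30 coding bases, and the other two are Hes2 and Hes7.

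The ligands DLL1 and DLL3 were low in progenitors and much higher in NEUROG2+ cells, and they parted in neurons, where DLL3 stayed high and DLL1 did not. DLL1, which activates Notch on neighbouring cells, lies at chr6:170282206-170291078 in human (hg38) and at chr17:15367354-15376872 in mouse (mm10). It had 25.6, 26.6, 27.7 and 16.3 CPM in progenitors, 106, 126, 72.4 and 85.2 CPM in NEUROG2+ cells and 35.8, 54.8, 16.9 and 24.0 CPM in neurons. In every library part the NEUROG2+ level was above both others, and no NEUROG2+ value overlapped a progenitor or neuron value. In thinned cells DLL1 was detected in 12.2%, 11%, 13.7% and 6.75% of progenitors, 39.5%, 44.8%, 31.4% and 36.4% of NEUROG2+ cells and 16.9%, 29.8%, 12% and 13.2% of neurons, so more cells with a DLL1 UMI came with the higher sums. For a sum over cells, fewer expressing cells and less RNA per cell cannot be told apart. DLL3, which in mouse dampens Notch within its own cell instead of activating it in neighbours, had 42.3, 33.8, 34.9 and 7.99 CPM in progenitors, 443, 325, 156 and 129 CPM in NEUROG2+ cells and 266, 297, 283 and 95.8 CPM in neurons. Its NEUROG2+ and neuron values overlapped, and mouse replicate 1 had more DLL3 in neurons than in NEUROG2+ cells. JAG1, a ligand of the Jagged group, had 18.6, 27.8, 3.82 and 13.5 CPM in progenitors, 13.1, 14.8, 5.12 and 16.9 CPM in NEUROG2+ cells and 7.16, 5.48, 5.48 and 5.77 CPM in neurons. JAG1 did not follow the 2 Delta ligands: its highest value was in progenitors of human replicate 2.

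The receptors were lower in neurons than in progenitors or NEUROG2+ cells, and NOTCH2 and NOTCH3 came close to 0 there. NOTCH1 had 32.8, 38.9, 49.6 and 44.5 CPM in progenitors, 37.3, 37.0, 74.6 and 91.5 CPM in NEUROG2+ cells and 9.69, 6.95, 17.8 and 10.3 CPM in neurons. In mouse the NEUROG2+ values exceeded the progenitor values, while in human they overlapped. NOTCH2 had 13.7, 12.3, 10.0 and 20.1 CPM in progenitors, 7.61, 5.94, 5.24 and 10.6 CPM in NEUROG2+ cells and 0.421, 0.421, 1.37 and 1.68 CPM in neurons. In human its reads may be shared with the near-identical NOTCH2NL copies, so human NOTCH2 is uncertain. NOTCH3 had 31.2, 31.1, 14.3 and 17.5 CPM in progenitors, 18.4, 18.3, 12.7 and 11.4 CPM in NEUROG2+ cells and 2.11, 1.26, 0.457 and 0.481 CPM in neurons. In each species the NOTCH3 values of the 3 classes did not overlap.

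MFNG, one of the fringe enzymes that add sugars to Notch receptors and change which ligands they answer to, had 7.93, 3.60, 38.8 and 12.4 CPM in progenitors, 38.4, 27.1, 88.0 and 86.9 CPM in NEUROG2+ cells and 34.1, 28.4, 97.7 and 32.6 CPM in neurons. It shared the Delta pattern up to the NEUROG2+ step. Mouse neurons were above the progenitors of their own library part in both replicates. Against NEUROG2+ cells of the same part they were somewhat higher in mouse replicate 1 and lower in mouse replicate 2.

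The effectors fell off in neurons. HES1 had 179, 219, 157 and 312 CPM in progenitors, 89.6, 93.6, 103 and 211 CPM in NEUROG2+ cells and 2.95, 7.58, 16.0 and 17.3 CPM in neurons, lower at each step in every library part. HES5 had 592, 963, 146 and 263 CPM in progenitors, 320.3, 1294, 186 and 669 CPM in NEUROG2+ cells and 25.7, 37.3, 25.1 and 63.2 CPM in neurons. HES5 was lower in NEUROG2+ cells than in progenitors only in human replicate 1 and higher in the other 3 parts. HES6 had 296, 355, 75.9 and 55.4 CPM in progenitors, 1219.8, 1008, 234 and 289 CPM in NEUROG2+ cells and 594, 524, 153 and 115 CPM in neurons, the course of DLL1 and not that of HES1.

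**Figure D1:**
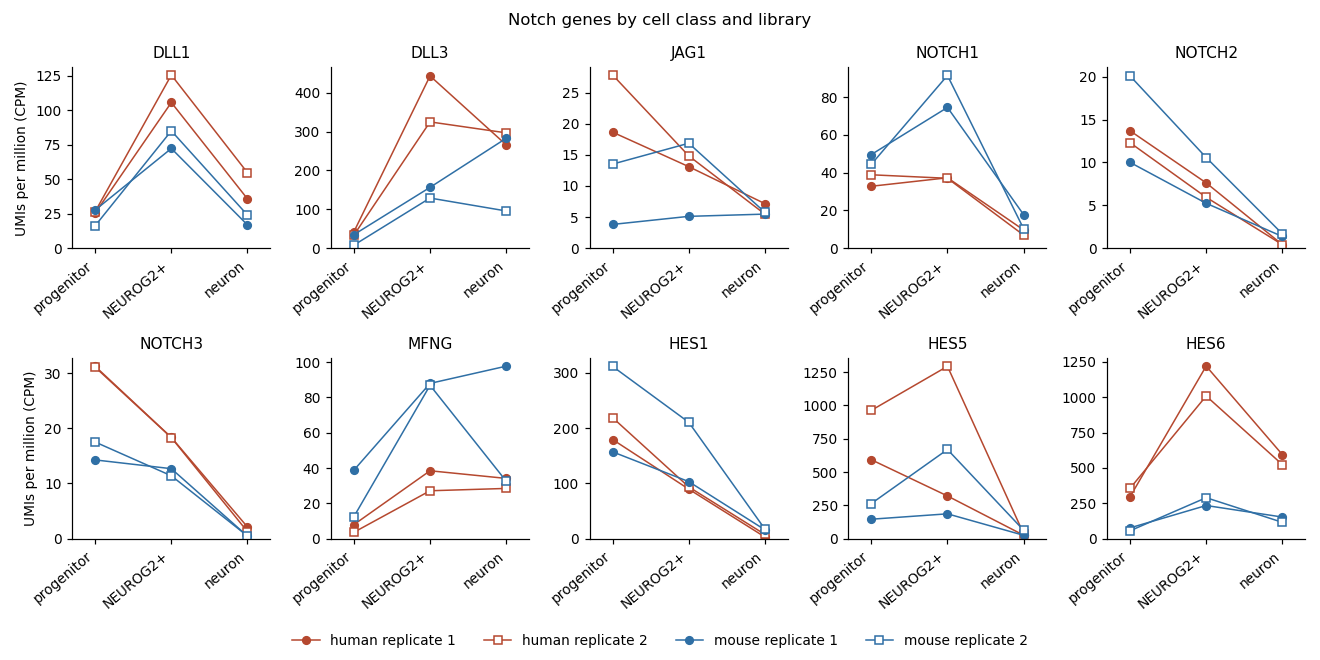
Level of the 10 genes in CPM (vertical axis, linear, from 0) in progenitors, NEUROG2+ cells and neurons (horizontal axis), 1 line per library part, human in red and mouse in blue. DLL1 and HES6 peak in NEUROG2+ cells in all 4 parts, while HES1 and NOTCH2 are lower at each step and HES5 is at most 63.2 CPM in neurons.

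NEUROG2+ cells were compared with progenitors to ask what changes as a cell starts to differentiate. In human, 7 of the 10 genes passed an adjusted p of 0.05 (edgeR's quasi-likelihood test, Benjamini-Hochberg adjustment over 11848 genes), against 4.41% of all genes tested. In mouse 6 of 10 passed, against 7.89% of all genes. By DESeq2, 5 of the 10 genes passed in human and 5 in mouse. The median log2 change of the 10 genes was -0.11 in human and 0.81 in mouse, beside -0.04 and -0.02 over all genes tested. With 2 library parts per species and library part as a block, the p-values measure only how the class differences vary between parts. This spread was estimated over both species jointly and may be technical, and in human the 2 parts were also different lines. Higher in both species were DLL1, DLL3, HES6 and MFNG, 4 of 10 where 3.39% of all genes were called higher in human and 6.05% in mouse. The log2 fold change of DLL1 was 2.10 ± 0.27 (SE, adjusted p = 0.00220) in human and 1.83 ± 0.26 (SE, adjusted p = 0.00244) in mouse. That of DLL3 was 3.29 ± 0.37 (SE, adjusted p = 9.95e-04) in human and 3.06 ± 0.37 (SE, adjusted p = 9.76e-04) in mouse. HES6 changed by 1.73 ± 0.18 (SE, adjusted p = 7.65e-04) in human and 1.98 ± 0.18 (SE, adjusted p = 3.15e-04) in mouse, and MFNG by 2.50 ± 0.41 (SE, adjusted p = 0.00819) in human and 2.01 ± 0.35 (SE, adjusted p = 0.00733) in mouse. All 4 genes were higher in NEUROG2+ cells than in progenitors of every library part.

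The receptors and effectors did not move together at this step, in which 1.01% of all genes were called lower in human and 1.84% in mouse. NOTCH2 was lower in both species, with log2 fold changes of -0.99 in human and -0.96 in mouse. NOTCH1 was higher in mouse (0.79 ± 0.19 SE, adjusted p = 0.0304). In human NOTCH3 was lower (-0.81 ± 0.17 SE, adjusted p = 0.0261) and so was HES1 (-1.15 ± 0.20 SE, adjusted p = 0.00894). In mouse HES1 changed by -0.62 ± 0.19 (SE, adjusted p = 0.0847), short of the threshold, with both replicates below 0. HES5 did not pass in either species: its adjusted p was 0.778 in human, where the replicates pointed in opposite directions, and 0.151 in mouse, where both were higher. Without human replicate 1 the human HES5 change turned to 0.42. With the cells that carry markers of other types left out, HES5 changed by -0.50 in human and 0.73 in mouse, still short of the threshold. HES1 then changed by -1.03 in human and by -0.61 in mouse, where it now passed (adjusted p = 0.0418).

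No difference between the species was called for the 10 genes in this step: 0 passed the test of the human change minus the mouse change, against 0.363% of all genes, 3 being under an unadjusted p of 0.05 and 0 passing by DESeq2. These calls rest on the library parts jointly. Without human replicate 1 or human replicate 2, none of the 10 passed in human (0 in both cases by edgeR), although the 7 log2 fold changes kept their sign. Without either of them the mouse count fell to 3, and without mouse replicate 2 it was 4. Without mouse replicate 1, 1 of the 10 genes passed the test between species.

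**Figure D2:**
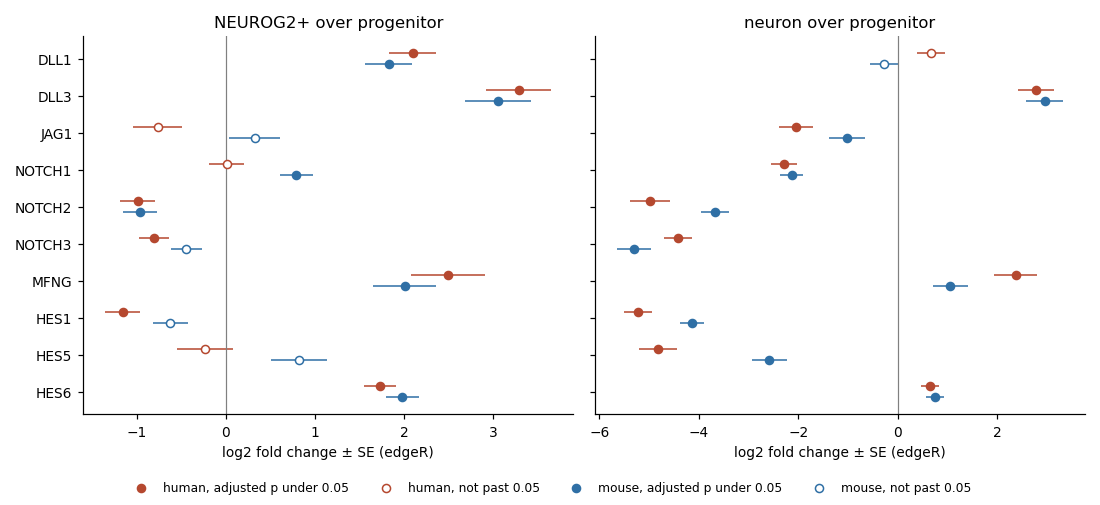
Log2 fold change (horizontal axis, with SE) of the 10 genes in NEUROG2+ cells over progenitors (left) and in neurons over progenitors (right), human in red and mouse in blue. Filled points passed an adjusted p of 0.05. DLL3 stays near 3 in both panels while DLL1 returns towards 0 in neurons.

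From NEUROG2+ cells to neurons, 8 of 10 genes were lower in human and 8 of 10 in mouse, against 19.4% of all genes called lower in human (34.2% in either direction) and 25.3% in mouse (47.9%). Their median log2 change was -1.86 in human and -2.41 in mouse, beside -0.04 and -0.02 over all genes. The list includes DLL1 and HES6, which had been higher in the step before. DLL1 changed by -1.43 ± 0.27 (SE, adjusted p = 0.00322) in human and -2.10 ± 0.29 (SE, adjusted p = 3.14e-04) in mouse, and HES6 by -1.09 ± 0.18 (SE, adjusted p = 0.00150) in human and -1.23 ± 0.19 (SE, adjusted p = 5.45e-04) in mouse. The effectors changed more, HES1 by -4.07 in human and -3.51 in mouse and HES5 by -4.59 in human and -3.40 in mouse. By edgeR, DLL3 and MFNG did not pass in either species, at adjusted p = 0.273 and 0.849 in human and 0.846 and 0.0509 in mouse. DESeq2 called 8 of the 10 genes in human and 7 in mouse. The test of the difference between species called 0 of the 10 genes by edgeR, against 7.9% of all genes, 1 being under an unadjusted p of 0.05 and 0 passing by DESeq2. With human replicate 1 left out 5 of 10 passed in human, and with human replicate 2 left out 4 did. Without mouse replicate 1 or 2, 1 of 10 passed the test between species. The mouse call of JAG1 was lost without mouse replicate 2 (log2 -0.11).

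Neurons and progenitors, the ends of the path, differed in 9 of 10 genes in human, against 48.1% of all genes, and in 9 of 10 in mouse, against 59.6%. With so many genes called, these counts say less than the sizes of the changes, whose median was -2.17 in human and -1.57 in mouse, beside -0.08 and -0.03 over all genes. DLL3, HES6 and MFNG were higher in neurons of both species, 3 of 10 against 21.2% of all genes in human and 28.6% in mouse. The log2 fold change of DLL3 was 2.78 ± 0.36 (SE, adjusted p = 1.96e-04) in human and 2.96 ± 0.37 (SE, adjusted p = 8.77e-05) in mouse. That of HES6 was smaller, 0.65 ± 0.18 (SE, adjusted p = 0.0137) in human and 0.75 ± 0.19 (SE, adjusted p = 0.00569) in mouse. The human HES6 call was lost without human replicate 1 (0.46, adjusted p = 0.259) and without human replicate 2 (0.87, adjusted p = 0.0787). It was also lost with the cells that carry markers of other types left out (0.40, adjusted p = 0.122). It turned to -0.12 in human when NEUROG2+ cells were also counted among progenitors and neurons. By edgeR, DLL1 passed in neither species (adjusted p = 0.0751 in human and 0.458 in mouse). DESeq2 called 10 of the 10 genes in human, DLL1 included, and 8 in mouse.

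The 3 receptors, JAG1 and both effectors were lower in neurons of both species, 6 of 10 against 27% of all genes in human and 30.9% in mouse. HES1 changed by -5.23 ± 0.28 (SE, adjusted p = 2.88e-06) in human and -4.13 ± 0.25 (SE, adjusted p = 1.68e-06) in mouse. NOTCH1 changed by -2.29 ± 0.26 (SE, adjusted p = 8.11e-05) in human and -2.13 ± 0.23 (SE, adjusted p = 3.58e-05) in mouse. NOTCH2 and NOTCH3 came close to 0 in neurons. NOTCH2 had 1, 2, 3 and 14 UMIs there, a ratio of neurons to progenitors of 0.0308 (95% counting interval 0.000774 to 0.174), 0.0343 (0.00411 to 0.126), 0.137 (0.0279 to 0.408) and 0.0838 (0.0455 to 0.142). NOTCH3 had 5, 6, 1 and 4 UMIs, with ratios of 0.0674, 0.0407, 0.0320 (0.000806 to 0.180) and 0.0275. For JAG1 the mouse call turned round without mouse replicate 2, where the log2 change was 0.27.

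HES5 was the 1 gene of the 10 whose neuron-to-progenitor change differed between species, a smaller share than the 21% of all genes. Its human and mouse levels overlapped in neurons, while in progenitors both human values were above both mouse values. Its log2 fold change was -4.83 in human and -2.58 in mouse, and the human change minus the mouse change was -2.24 ± 0.51 (SE, adjusted p = 0.0137). Within the mixed library the log2 ratios of HES5 (CPM counted over the genes shared by both species, 1 CPM added) were -4.47 in human and -2.49 in mouse, and between the second libraries -4.65 in human and -2.02 in mouse. The number of the 10 genes called in this test was 2 without mouse replicate 1 and 5 without mouse replicate 2. The HES5 difference missed the threshold without human replicate 2, at -1.97 and adjusted p = 0.0686. With cells that carry mesenchyme, crest, epithelial or endoderm markers left out it was -2.38 at adjusted p = 0.00509. HES1 then passed the same test, at -1.30 and adjusted p = 0.0269.

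NEUROG2+ cells were also split by STMN2, into cells with none (475, 331, 357 and 335 cells) and cells with at least 3 UMIs (125, 108, 64 and 118 cells), to place the changes along the path. DLL1 stood at 118, 123, 70.3 and 92.1 CPM in STMN2-negative and 43.3, 93.7, 50.5 and 39.7 CPM in STMN2-positive NEUROG2+ cells. DLL3 stood at 414, 252, 97.1 and 83.8 CPM and 462, 465, 549 and 237 CPM in the same 2 stages, so its highest stage was the STMN2-positive one in all 4 parts. The DLL1 level was thus already lower where DLL3 was highest.

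HES1 stood at 109.6, 113, 121 and 263 CPM in STMN2-negative NEUROG2+ cells. In STMN2-positive ones it had 0 UMIs in human replicate 1, which allows up to 2.28 CPM, and 16.8, 1.30 and 33.1 CPM in the other 3 parts. HES5 stood at 388, 1559, 213 and 770.4 CPM and 42.6, 225, 37.6 and 257 CPM in those 2 stages. HES5 in STMN2-negative NEUROG2+ cells was thus above the progenitor level in 3 parts, and in all 4 it was lower once STMN2 was present. HES6 was 1285, 1011, 195 and 253 CPM and 701, 677, 328 and 342 CPM, with its top stage before STMN2 in human and with STMN2 in mouse.

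**Figure D3:**
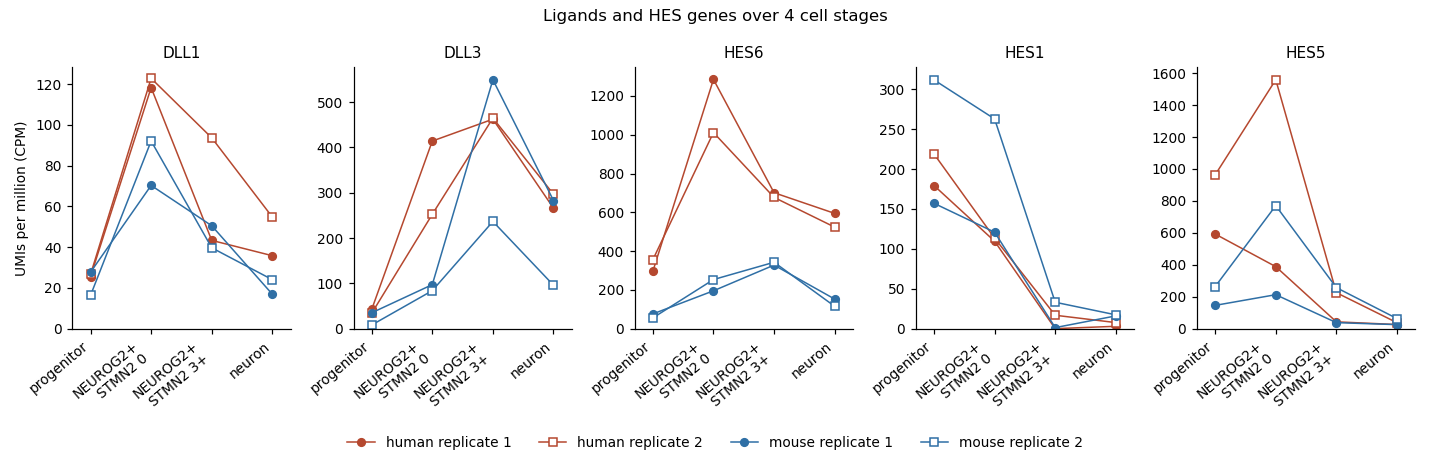
Level in CPM (vertical axis, linear, from 0) of DLL1, DLL3, HES6, HES1 and HES5 over 4 stages from progenitors through NEUROG2+ cells without and with STMN2 to neurons (horizontal axis), 1 line per library part. DLL3 is highest in STMN2-positive NEUROG2+ cells in all 4 parts, where HES1 is at most 33.1 CPM.

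Ligand and effector were next compared within single cells of 1 class, to ask whether a cell with a ligand lacks HES1 and HES5. The measure was the log2 odds ratio of detecting both genes in cells thinned to 7000 UMIs, with 0.5 added to each count: below 0 means that cells with a UMI of one gene had the other less often than cells without it. Cells are not replicates, so these are descriptions over 4 library parts without a p.

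HES1 and HES5 were detected less often in NEUROG2+ cells with a DLL3 UMI than in those without one. The log2 odds ratio of DLL3 with HES1 was -2.48, -1.64, -2.23 and -1.98, and that of DLL3 with HES5 was -2.56, -1.72, -1.69 and -1.08. All 8 values were below 0. HES5 was detected in 27.4% of 321 DLL3+ cells (22.6% to 32.6%), against 69.1% of 317 DLL3- cells (63.7% to 74.1%) in human replicate 1 (exact 95% binomial intervals, counting error only). It was detected in 65.1% of DLL3+ cells, against 86.1% of DLL3- cells in human replicate 2. In mouse replicate 1 it was found in 25.3% of DLL3+ cells, against 52.3% of DLL3- cells, and in mouse replicate 2 in 57.7% of DLL3+ cells, against 74.4% of DLL3- cells. HES1 was detected in 9.97% of DLL3+ cells, against 38.5% of DLL3- cells in human replicate 1 and in 29.1% of DLL3+ cells, against 61.9% of DLL3- cells in mouse replicate 2. For background, neurons at the same 7000 UMIs had a HES5 UMI in 8.44%, 12.5%, 8.45% and 7.65% of cells and a HES1 UMI in 0.889%, 5.88%, 7.04% and 6.76%.

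DLL3 stood near the bottom of all genes in this respect. Of the genes detected in 5% to 95% of NEUROG2+ cells, 48 of 8265 had a log2 odds ratio with HES5 at or below that of DLL3 in human replicate 1. The same count was 357 of 9164 in human replicate 2, 118 of 7506 in mouse replicate 1 and 630 of 8171 in mouse replicate 2. With HES1 it was 88 of 8265, 177 of 9164, 60 of 7506 and 172 of 8171. The lowest means over the 4 parts were those of MYT1 and ST18 with HES1 and of STMN4 and SLIT2 with HES5, named after their values were seen. STMN2 moves with DLL3, as given above, so the pairs were read again in STMN2-negative NEUROG2+ cells alone. There DLL3 with HES5 was -2.67, -1.99, -1.12 and -0.49 and DLL3 with HES1 was -2.07, -1.33, -1.20 and -1.77, below 0 in all 4 parts for both.

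DLL1 gave values of its own. Its log2 odds ratio with HES1 in NEUROG2+ cells was -0.51, -0.90, -0.56 and -0.25, below 0 in all 4 parts but nearer to 0 than that of DLL3. The mouse mean of -0.41 turned to 0.03 at 5000 UMIs per cell and to 0.40 when at least 2 UMIs of both genes were asked for. With HES5 the log2 odds ratio of DLL1 was -0.54, -0.25, 0.30 and 1.48, below 0 in both human parts and above 0 in both mouse parts. Counted as for DLL3, 1384 of 8265, 3425 of 9164, 5710 of 7506 and 8000 of 8171 genes lay at or below DLL1 with HES5. With HES1 the counts were 1588 of 8265, 639 of 9164, 1509 of 7506 and 3369 of 8171. In each part these values thus lay further from the low end than those of DLL3. DLL1 with HES5 in mouse replicate 2 lay near the high end instead. HES5 was found in 42.5% of DLL1+ cells, against 51.8% of DLL1- cells in human replicate 1 and in 80.6% of DLL1+ cells, against 59.6% of DLL1- cells in mouse replicate 2. In STMN2-negative NEUROG2+ cells the values with HES5 were -1.47, -1.19, 0.13 and 1.23, with the same signs. At 5000 UMIs per cell human replicate 2 was at 0.32. The difference between species was not tested. The log2 odds ratio of JAG1 in NEUROG2+ cells was 1.14, 0.35, 1.08 and 1.00 with HES1 and 1.21, 0.70, 0.56 and 0.54 with HES5, above 0 in all 4 parts, but JAG1 was detected in only 6.74%, 8.21%, 3.03% and 7.29% of those cells. These signs did not hold under every setting. In STMN2-negative NEUROG2+ cells human replicate 2 gave -0.57 with HES1 and -0.78 with HES5. At 5000 UMIs per cell mouse replicate 1 gave -0.88 with HES1, and the mean with HES5 was -0.16 in mouse.

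**Figure D4:**
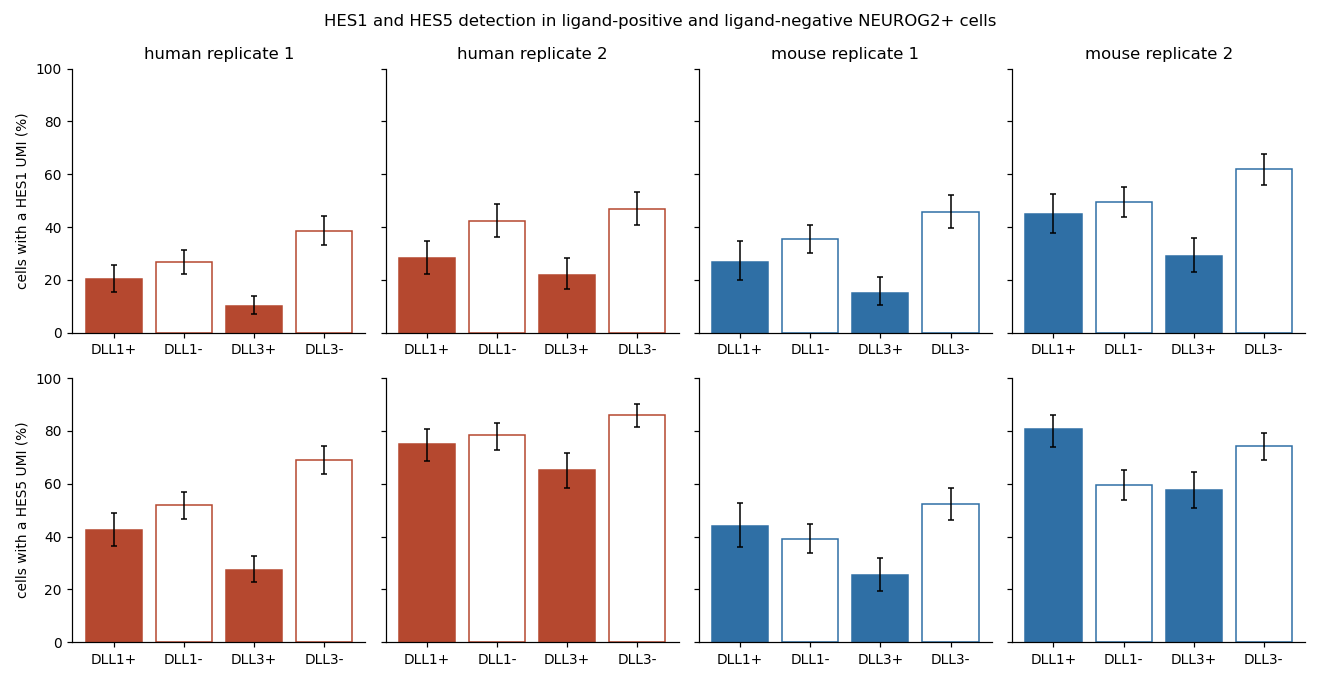
Share of NEUROG2+ cells with a HES1 UMI (top) or a HES5 UMI (bottom), in percent of thinned cells, among cells with and without DLL1 and with and without DLL3, for each library part. Filled bars are ligand-positive cells and error bars show exact 95% binomial intervals. DLL3-positive cells have the lower share in all 4 parts for both effectors, whereas DLL1-positive cells have the higher HES5 share in both mouse parts.

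HES1 and HES5 went together in NEUROG2+ cells, with a log2 odds ratio of 2.40, 2.92, 1.43 and 2.53. In progenitors the same pair gave -0.70, -0.79, 0.48 and 0.36, below 0 in both human parts and above 0 in both mouse parts, a difference that was not tested. With marker-bearing cells of other types left out the progenitor values were -0.33, -0.95, 0.48 and 0.37, with the same signs. At 5000 UMIs per cell they were -0.14, -0.86, -0.15 and 0.31, so 1 mouse part fell below 0.

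In progenitors DLL1 with HES1 was -0.10, -1.83, -1.18 and -0.22 and DLL3 with HES1 was -0.20, -0.79, -1.22 and -0.74, below 0 in all 4 parts at 7000 UMIs. In unthinned cells DLL1 with HES1 was 0.48, -0.80, -0.96 and 0.20 and DLL3 with HES1 was 0.34, -0.23, -1.94 and 0.04, above 0 in 1 part of each species for both ligands. At 5000 UMIs per cell human replicate 1 was also above 0 for both, and mouse replicate 2 for DLL1, so no sign is drawn from these pairs in progenitors. With HES5 the ligands took both signs: DLL1 gave -0.67, 1.00, 0.26 and 1.64 and DLL3 gave -0.78, 0.39, -0.29 and 1.30. In human replicate 2, whose progenitors carried the mesenchyme or crest markers, the value of DLL1 with HES5 was -0.55 with the marker-bearing cells left out. That exclusion kept 312 of its 507 progenitors, so the value is from a smaller set of cells.

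Over all 45 pairs of the 10 genes, 14 were above 0 and 10 below 0 in all 4 parts in NEUROG2+ cells, and 14 were above and 7 below in progenitors. The same count was not made for pairs of other genes, so these numbers do not show whether the 10 genes are unusual. Only the pairs of a ligand with HES1 or HES5, and HES1 with HES5, were read again under other settings. The signs of all other pairs, those below included, rest on the thinning depth used for the classes. Some came near 0 in progenitors: the lowest value was 0.32 for DLL3 with HES6 and 0.27 for DLL1 with NOTCH1. The highest for DLL1 with NOTCH3 was -0.18. At that depth DLL1, DLL3, HES6 and MFNG formed pairs above 0 with each other in all 4 parts of both classes. DLL1 with HES6 gave 1.97, 1.68, 2.38 and 2.03 in NEUROG2+ cells, and DLL3 with HES6 gave 1.30, 1.28, 2.52 and 2.07. NOTCH1 went with both DLL1 and HES5 in all 4 parts of both classes, at 0.53, 0.83, 1.23 and 1.30 with DLL1 and 1.14, 1.52, 0.67 and 2.11 with HES5 in NEUROG2+ cells. NOTCH3 lay below 0 with DLL1 and DLL3 in all 4 parts of both classes. In NEUROG2+ cells it gave -1.26, -1.65, -1.38 and -1.16 with DLL3.

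**Figure D5:**
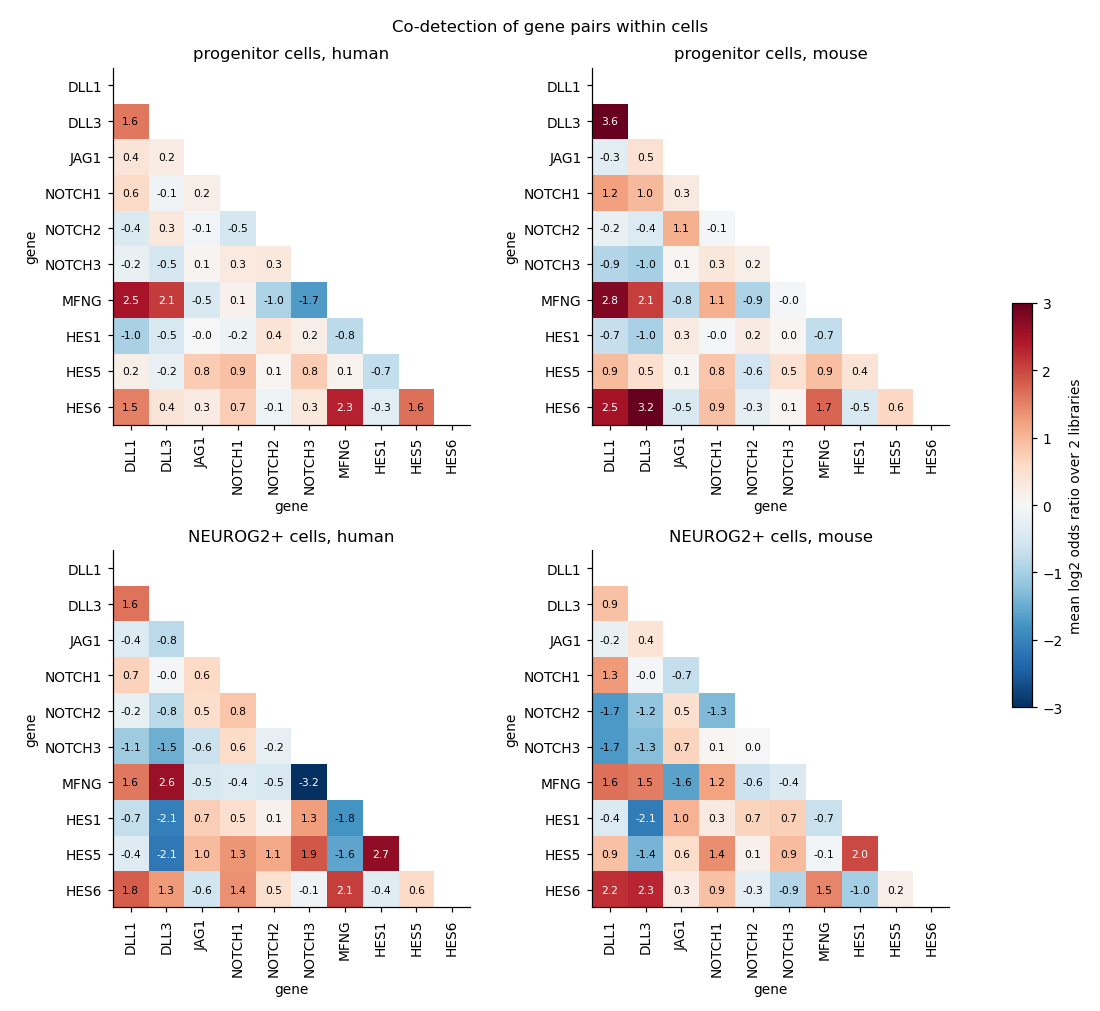
Mean log2 odds ratio over the 2 library parts of a species for each pair of the 10 genes (rows and columns), in progenitors (top) and NEUROG2+ cells (bottom), human left and mouse right. Red is above 0, blue below 0, and the colour scale ends at 3 on either side. In NEUROG2+ cells the DLL3 column is blue for HES1 and HES5 and red for HES6 and MFNG in both species.

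Levels were then tested between cells with and without a DLL1 UMI within a class, with DLL1 itself left out because it made the split. DLL1+ cells numbered 83, 56, 95 and 58 among progenitors and 252, 213, 145 and 180 among NEUROG2+ cells. In DLL1+ over DLL1- progenitors, 2 of 9 genes passed in human, against 0.289% of all genes tested, and 5 of 9 in mouse, against 2.99%. The median log2 change was -0.09 in human and 1.12 in mouse, beside -0.12 and -0.11 over all genes. All genes called were higher in DLL1+ cells, as were 0.219% of all genes in human and 2.07% in mouse. DLL3 had 164, 143, 132 and 82.9 CPM in DLL1+ progenitors, against 25.3, 19.8, 21.2 and 3.71 CPM in DLL1- progenitors, a log2 fold change of 2.68 ± 0.39 (SE, adjusted p = 0.00306) in human and 3.30 ± 0.39 (SE, adjusted p = 9.17e-05) in mouse. HES6 had 641, 1314, 221 and 291 CPM in DLL1+ and 247, 233, 55.4 and 41.9 CPM in DLL1- progenitors, a log2 fold change of 1.94 ± 0.26 (SE, adjusted p = 0.00217) in human and 2.33 ± 0.28 (SE, adjusted p = 8.05e-05) in mouse. Neither gene's DLL1+ values overlapped its DLL1- values within a species. In mouse MFNG was higher too (2.47 ± 0.35 SE, adjusted p = 5.22e-04).

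The receptor NOTCH1 and the effector HES5 were also higher in mouse DLL1+ progenitors. NOTCH1 had 86.3 and 109 CPM in DLL1+ and 44.4 and 40.8 CPM in DLL1- mouse progenitors, a log2 fold change of 1.12 ± 0.18 (SE, adjusted p = 0.00192). HES5 had 274 and 952 CPM in DLL1+ and 128 and 224 CPM in DLL1- mouse progenitors, with a change of 1.51 ± 0.34 (SE, adjusted p = 0.0204). Both calls were lost without mouse replicate 2, at log2 0.79 for NOTCH1 and 0.94 for HES5. In human progenitors HES5 had 470.3 and 1307 CPM in DLL1+ and 609.6 and 919 CPM in DLL1- cells, and the replicates pointed in opposite directions. HES1 did not pass in either species (adjusted p = 0.708 in human and 0.660 in mouse). NEUROG2, which the class had kept at 0 in thinned cells, still had 62.3, 98.3, 31.3 and 41.5 CPM in DLL1+ and 15.5, 29.8, 12.7 and 10.6 CPM in DLL1- progenitors when all UMIs were summed. Its part in these differences was not tested.

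Among NEUROG2+ cells, 2 of 9 genes passed between DLL1+ and DLL1- cells in human, against 0.429% of all genes, and 1 of 9 in mouse, against 0.368%. These too were higher in DLL1+ cells, as were 0.341% of all genes in human and 0.236% in mouse. In human these were DLL3 (1.72 ± 0.33 SE, adjusted p = 0.0327) and HES6 (1.52 ± 0.25 SE, adjusted p = 0.0148). The median log2 change of the 9 genes was -0.20 in human and 0.73 in mouse, beside -0.03 and -0.05 over all genes. The mouse gene was NOTCH1, with 112 and 140.3 CPM in DLL1+ and 60.2 and 67.1 CPM in DLL1- cells and a change of 1.00 ± 0.18 (SE, adjusted p = 0.0245). HES1 and HES5 did not pass: HES5 had 236, 1303, 210.0 and 1027 CPM in DLL1+ and 372, 1287, 177 and 490.4 CPM in DLL1- NEUROG2+ cells. The human counts were 0 without human replicate 1 or 2, and 4 without mouse replicate 1 or 2. The mouse count was 0 without mouse replicate 2 and without either human part, and 2 without mouse replicate 1. In progenitors the human count was 1 without human replicate 1 and 0 without human replicate 2. With DESeq2's size factors the median log2 change of all genes in human DLL1+ progenitors moved from -0.12 to -0.01, and both DLL3 and HES6 stayed past the threshold there.

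Genes whose level followed that of a member most closely were named by Pearson's r of log2 CPM (10 added) over the 12 class sums, centred within library part, a description over points that share libraries. For DLL1 these were PRDM8, a transcriptional repressor (r = 0.934), and the proneural factors NEUROG1 (0.932) and NEUROG2 (0.925), the last of which made the classes. For HES5 they were DIEXF (0.992), the cell cycle factor E2F1 (0.991) and the histone gene H2AFV (0.987). For HES6 they were SPSB4 (0.958), BTBD17 (0.951) and the proneural factor NEUROD4 (0.945). Within NEUROG2+ cells DLL1 was most often detected together with GADD45G, a growth arrest gene, at a mean log2 odds ratio of 2.59, then NEUROG1 at 2.17 and HES6 at 2.01, named after their values were seen among 5372 genes.

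Of 49 other Notch pathway genes listed by symbol, 46 were in all 4 parts and 45 could be tested. In NEUROG2+ cells over progenitors 6 passed in human (13.3%, against 4.41% of all genes) and 6 in mouse (13.3%, against 7.89%), and all of these were higher. The 5 shared between species were DNER (log2 4.25 in human and 4.85 in mouse), a non-classical Notch ligand, DLL4 (4.13 and 3.26), a Delta ligand, HES2 (2.10 and 4.33), NUMBL (1.58 and 1.64), related to the Notch inhibitor NUMB, and the co-repressor TLE1 (0.99 and 0.65). DLL4 thus had the direction of DLL1 and DLL3. In neurons over NEUROG2+ cells 5 were higher and 11 lower in human (35.6% called, against 34.2% of all genes), and 10 were higher and 11 lower in mouse (46.7%, against 47.9%), both shares near the background. LFNG, another fringe enzyme, was lower (-3.15 in human and -3.17 in mouse), where MFNG did not pass. The effector HEY2 (-3.17 and -2.61), the ubiquitin ligase gene DTX4 (-2.28 and -2.16) and NRARP, a target and feedback regulator of Notch (-1.67 and -1.83), were lower as well, whereas DNER (2.58 and 3.14) and DTX1 (2.01 and 3.66) were higher.

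In neurons over progenitors 14 of these 45 genes were higher and 11 lower in human (55.6% called, against 48.1% of all genes), and 18 were higher and 8 lower in mouse (57.8%, against 59.6%), shares again near the background. DNER was again the furthest, at 6.82 in human and 7.99 in mouse, and DLL4 was higher at 4.72 in human and 1.92 in mouse. LFNG was lower at -3.54 in human and -2.99 in mouse. The median log2 change of the 45 genes was -0.01 in human and 0.39 in mouse, beside -0.08 and -0.03 over all genes. In DLL1+ over DLL1- progenitors 4 of 44 genes passed in mouse, all higher, against 2.99% of all genes, and 0 passed in human by edgeR and by DESeq2, with 6 below 0.05 in edgeR's unadjusted p. In DLL1+ over DLL1- NEUROG2+ cells 1 passed in human (against 0.429% of all genes) and 2 in mouse (against 0.368%), all higher.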

How the data were processed

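Single cells were measured by 10x 3' sequencing. The deposited files hold whole-number UMI counts per gene and cell, which the authors made with Cell Ranger 3.1.0 on the builds hg38 and mm10, per the submitters' processing notes. The gene annotation is not given in the sources used here and differed between replicates, with 32739 and 56832 gene entries in human and 27999 and 54087 in mouse. Mouse symbols were matched to human ones in capitals.

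Cells with under 1000 UMIs, under 500 genes or over 10% mitochondrial UMIs were left out (15, 215, 5 and 77 cells), as were 60 barcodes that the human and mouse parts of the mixed library share, and Scrublet doublets at an expected rate of 5% (13, 24, 5 and 32 cells). This left 2321, 1805, 1811 and 2674 cells, of which 1927, 1461, 1744 and 2521 reached 7000 UMIs and were used. Shallower cells entered no class. The libraries shared at most 2 other barcodes.

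Raw counts were summed per library part and class and tested with edgeR 4.0.16 in R 4.3.3 (TMM, low counts filtered, quasi-likelihood test, Benjamini-Hochberg adjustment) on both species jointly, with library part as a block. The 12 sums left 4 residual degrees of freedom, and the DLL1 split used 20 sums with 8. Classes of 1 part come from the same cultures, and their deviations from class means correlated at 0.81 to 0.89 in human and 0.63 to 0.87 in mouse. The script was tested on simulated data for neurons over progenitors in human with 11666 genes: 82 of 100 genes changed 2-fold and 100 of 100 changed 4-fold were called, with 23 false calls. Python 3.11.15, scanpy 1.11.5 and scipy 1.17.1 handled the cells, and sequences are from GENCODE M21 transcripts of mm10. Intervals and limits cover counting error only, and a count of 0 was given a limit of 3 counts.

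The 10 genes, the gene lists and the tests were chosen with earlier results of these data known. Other genes are named as the 3 most alike in level, and as up to 6 Notch genes per comparison past the threshold in both species, ranked by the smaller change. Genes named by co-detection were chosen after their values were seen. Alternatives changed the scaling (DESeq2 1.42.0 size factors), the test (DESeq2), the filter, the block, the joint fit, the thresholds of the classes, the thinning depth and the doublet caller, and left out each library part. Leaving out cells with markers of other types, and the STMN2-negative NEUROG2+ cells, were added after seeing the data.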

Additional observations from a re-analysis of the deposited data

Results flagged for a closer look

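HES5 differed between the species in its change in neurons over progenitors. Its human and mouse levels overlapped in neurons, while in progenitors both human values were above both mouse values. The human change minus the mouse change was -2.24 on the log2 scale (edgeR's quasi-likelihood test, adjusted p = 0.0137), with a lower ratio in both human parts than in either mouse part. Over the settings tried its adjusted p ran from 0.000186 (DESeq2) to 0.336 (no replicate block), and the call was also lost without human replicate 2 and with 1 STMN2 UMI enough for a neuron (-1.51, adjusted p = 0.0623).

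HES1 and HES5 took opposite signs of co-detection in progenitors of the 2 species, with a mean log2 odds ratio of -0.74 in human and 0.42 in mouse, every library part having the sign of its species. The difference was not tested, and at 5000 UMIs per cell the mouse mean was 0.081, with mouse replicate 1 at -0.15.

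DLL1 with HES5 also took opposite signs in NEUROG2+ cells of the 2 species, with a mean log2 odds ratio of -0.40 in human and 0.89 in mouse. This difference was not tested either, and human means nearer to 0 were found at 5000 UMIs per cell (-0.0672) and in unthinned cells (-0.16). Human replicate 2 was above 0 at 5000 UMIs per cell (0.32) and with at least 2 UMIs of both genes asked for (0.055).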

How the results depend on the processing

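Of 1146 recomputed changes of single members (87 changes, each under several settings), 983 kept their direction and side of the threshold, 108 lost the call, 45 gained it and 10 changed sign. The sign changed for HES5 in human NEUROG2+ cells over progenitors with classes set on unthinned cells (0.0394), and for human neurons over progenitors with NEUROG2+ cells kept in the other classes (DLL1 -0.29, HES6 -0.12). It changed for HES5 in human DLL1+ over DLL1- progenitors with DESeq2's size factors (0.0239), DESeq2 (0.0311) and no replicate block (0.0764). Without human replicate 1 it changed for HES5 in human NEUROG2+ cells over progenitors (range with 1 part left out -0.94 to 0.42) and in human DLL1+ over DLL1- progenitors (-0.40 to 0.45) and NEUROG2+ cells (-0.62 to 0.0263). Without mouse replicate 2 it changed for JAG1 in mouse neurons over progenitors (-1.45 to 0.27). The causes were not tested.

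Leaving the block out, and with it the pairing of classes from 1 library part, cost most calls. The members called fell to 0 for NEUROG2+ cells over progenitors in human and in mouse (edgeR), to 0 for the species difference of neurons over progenitors, to 0 and 1 for DLL1+ over DLL1- progenitors in human and mouse, and to 0 and 0 for NEUROG2+ cells. All genes called were then 31, 32 and 0 for the first step (human, mouse, difference; 522, 935 and 43 with the block), 594, 1301 and 1 for neurons over NEUROG2+ cells (4048, 5670 and 936), 1821, 2988 and 38 for neurons over progenitors (5701, 7057 and 2491), and 1, 10, 1 and 1 for the DLL1 splits (33, 342, 49 and 42).

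Member counts also moved to 3 for mouse NEUROG2+ cells over progenitors with each species fitted alone. The species difference gave 1 for neurons over NEUROG2+ cells without the doublet caller, and for neurons over progenitors 3 without it, 3 with NEUROG2+ cells in the other classes and 2 with cells of other markers left out. Mouse DLL1+ over DLL1- NEUROG2+ cells gave 2 with DESeq2, 3 without the filter and 2 with at least 2 DLL1 UMIs. In human the DLL1 splits gave 3 with DESeq2 in progenitors and 3 in NEUROG2+ cells. With 1 library part left out at a time, members called ranged from 0 to 8 in human, 3 to 7 in mouse and 0 to 1 for the difference in the first step. They ranged from 4 to 9, 7 to 10 and 0 to 1 for neurons over NEUROG2+ cells, and from 6 to 10, 7 to 9 and 0 to 5 for neurons over progenitors. For the DLL1 splits they ranged from 0 to 3 and 4 to 5 in human and mouse progenitors and from 0 to 4 and 0 to 2 in NEUROG2+ cells.

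Genes called with 1 part left out ranged from 17 to 1135, 304 to 1536 and 0 to 358 in the first step, 368 to 4874, 2914 to 5579 and 3 to 1611 in neurons over NEUROG2+ cells, and 2118 to 6364, 4218 to 7186 and 330 to 3422 in neurons over progenitors. In the DLL1 splits they ranged from 12 to 83 and 93 to 376 in progenitors and from 1 to 150 and 3 to 48 in NEUROG2+ cells. Each species alone gave 1155 and 378 in the first step, and unthinned classes 610 in mouse. Its species difference gave 122 with DESeq2, 105 unfiltered, 84 with at least 2 NEUROG2 UMIs, 19 unthinned and 22 without cells of other markers. That of neurons over NEUROG2+ cells gave 300 with 1 STMN2 UMI, 525 with 2 NEUROG2 UMIs and 609 unthinned, and that of neurons over progenitors 1656 with 1 STMN2 UMI. The DLL1 splits gave 70 and 64 with DESeq2 and unfiltered in human progenitors, 66 and 714 with at least 2 DLL1 UMIs in human and mouse progenitors, 99 and 126 unfiltered and 148 and 149 with at least 2 DLL1 UMIs in human and mouse NEUROG2+ cells, and 70 with DESeq2 in the mouse ones. DESeq2's size factors moved the split of higher against lower calls to 40 and 5 in human DLL1+ progenitors (25 and 8 with TMM), 276 and 63 in mouse (236 and 106), and 47 and 15 in mouse NEUROG2+ cells (27 and 15).

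Of the co-detection means in NEUROG2+ cells, DLL1 with HES5 in human was -0.16 unthinned, -0.0672 at 5000 UMIs and -1.33 in STMN2-negative cells. DLL1 with HES1 was -0.40 at 5000 UMIs, -0.28 with at least 2 UMIs of both genes and -1.0 in STMN2-negative cells in human, and 0.0318, 0.40 and -0.68 in mouse. DLL3 with HES1 was -3.26 with 2 UMIs in human, and in mouse -2.70 unthinned, -1.87 at 5000 UMIs, -1.71 with 2 UMIs and -1.48 in STMN2-negative cells. DLL3 with HES5 in mouse was -1.85 unthinned, -0.84 with 2 UMIs and -0.80 in STMN2-negative cells. With 1 part left out, DLL3 ranged from -2.56 to -1.72 with HES5 and -2.48 to -1.64 with HES1 in human, and from -1.69 to -1.08 and -2.23 to -1.98 in mouse. DLL1 ranged from -0.54 to -0.25 with HES5 and -0.90 to -0.51 with HES1 in human, and from 0.30 to 1.48 and -0.56 to -0.25 in mouse. With 2 parts per species and 7000 UMIs per cell, receptors at a few UMIs per class and cells without a UMI limit what can be seen.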
